A study of Sus scrofa with 16 samples.

Results

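Liver and longissimus muscle, a skeletal muscle of the back, were compared gene by gene within each of 4 gilts, young female pigs. The comparison covered the 175 genes for which the platform annotation gave a symbol, measured by 178 of the 20736 rows of the array. The other 20558 rows stayed unnamed here and served as the background, so that 20733 features were tested once the 4 probes of ASIP had been averaged. The liver minus muscle difference was obtained once per gilt, and the gilt was the replicate (n = 4).

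The study was made to test a pig array of long oligonucleotides. It used these 2 tissues with uterine endothelium and brain stem, all of the same 4 gilts at about 165 days of age, with no treatment named in the labels. RNA extracted with TRIzol was amplified with a T7 oligo(dT) primer, labelled with Cy3 or Cy5, and hybridised so that each gilt formed 1 loop of 4 two-dye arrays in which every tissue met both dyes. Gilt and loop could not be told apart in this design. Arrays carrying liver and muscle together existed in gilts 1, 2 and 4, with liver in Cy3 in gilt 1 and in Cy5 in gilts 2 and 4. In gilt 3 the tissues were linked only through uterine endothelium and through brain stem.

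Hepatocytes make most plasma proteins, form bile acids from cholesterol and break down purines and aromatic amino acids. Skeletal muscle fibres are formed under the control of myogenic transcription factors such as MYOD1 and are rich in contractile proteins and energy metabolism enzymes. Both tissues are rich in mitochondria. Each sample was bulk tissue, so a lower value can mean fewer cells of a type or less RNA per cell, and these cannot be told apart.

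All values below are differences of log ratios, given on a log2 scale, in which a difference of 1 is a doubling. That base was inferred, because the largest deposited value, 10.42 in size, is 1372-fold as log2 and 33586-fold as a natural log. The sign, Cy5 over Cy3, was also inferred: it is likely but not settled, since it rests on liver genes being higher in liver and MYOD1 being higher in muscle. Those genes are therefore not independent evidence of the direction, and turning the sign would exchange higher and lower throughout. The array medians lay between -0.01 and 0.01. Since no intensities were used here, dim and bright probes were treated alike. The precision is limited by having 4 gilts.

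The labelled tissues were set against their markers. Of 8 hepatocyte markers 5 were measured, namely CRP, PROC, UOX, MBL2 and CYP7A1, and all 5 were higher in liver. ALB, APOA1 and TTR were not among the named genes. Other measured genes of liver, listed below, were not in this marker set. Of them FCN1, QDPR and GAL3ST2 were higher in liver, while PGLYRP2, CYP8B1 and VNN1 did not pass. Of 6 muscle fibre markers only MYH7 was measured and it did not pass, while MYOD1, the only 1 of 4 myogenic markers measured, was lower in liver. Among markers of other cells, CD4 was the only 1 of 6 for leukocytes and did not pass, CAV1 was the only 1 of 5 for endothelium and stroma and was lower in liver, and GLRB and GAD2, the 2 measured of 5 for neurons and glia, did not pass. The check of the muscle label thus rests here on a single named marker. Because liver genes and MYOD1 also served to infer the sign, their direction is not independent support for the labels. Markers of other cells were too few for an account of tissue composition, whose part in the differences was not tested.

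Among the named genes, 56 of 175 (32.0%) differed between liver and muscle (limma, Benjamini-Hochberg adjusted p under 0.05), where 26.1% of all features did. Of these, 30 were higher in liver (17.1%, against 13.3% of all features) and 26 were lower (14.9%, against 12.8%). Differences of at least 1 were found for 9 higher and 5 lower genes. Such differences made up 3.86% and 2.92% of all features. All 56 kept 1 sign in all 4 gilts, as did 111 of all 175 genes (63.4%) and 54.3% of all features. The smallest difference that passed was 0.16 in size and the largest that did not pass was 0.76, so that passing depended on the spread as well as on the size. The spread behind each SE, p and interval was the residual scatter of all 4 tissues. The ± values below are instead the SD of liver minus muscle over the 4 gilts. These can part: TYROBP had an SD of 0.08 and an SE of 0.25, and CRP an SD of 0.56 and an SE of 0.19. The median SE of a named gene was 0.09.

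**Figure D1:**
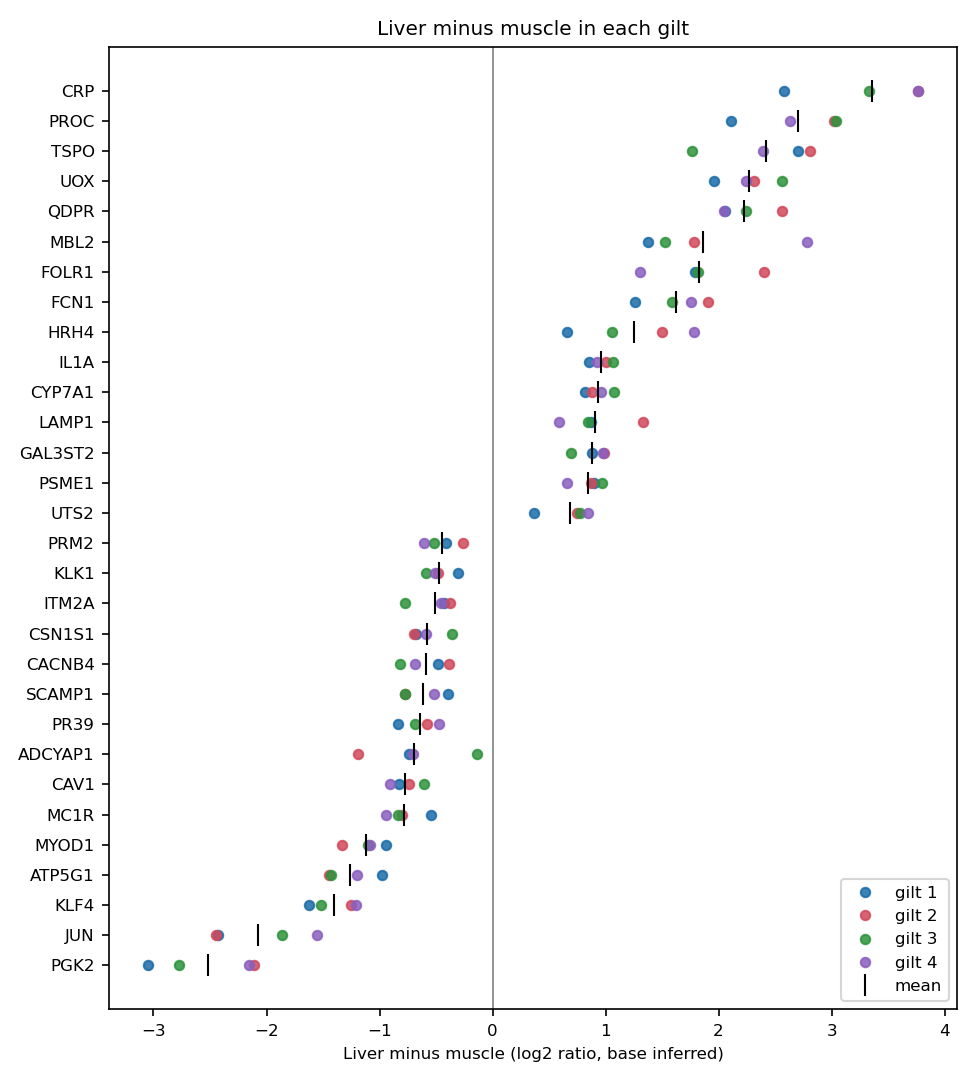
The 15 named genes with the largest differences in each direction. The x axis is liver minus muscle on the inferred log2 scale, coloured points are the 4 gilts and the black bar is their mean. For each gene the 4 points lie on the same side of 0, from 3.36 on average for CRP to -2.52 for PGK2. ADCYAP1 in gilt 3 is nearest to 0, at -0.14.

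CRP and PROC, both plasma proteins, had the largest differences towards liver among the named genes. CRP, the acute phase protein that hepatocytes release in inflammation, differed by 2.58, 3.76, 3.33 and 3.77 in gilts 1 to 4. Gilt 1 was the lowest and the other 3 lay within less than 0.5 of each other. Against each gilt's mean of 4 tissues, CRP stood at 2.08, 2.66, 2.46 and 2.69 in liver and at -0.49, -1.11, -0.87 and -1.08 in muscle, so the tissues did not overlap. The mean difference was 3.36 ± 0.56 (SD, n = 4; limma adjusted p = 2.1e-07). Its 95% interval, from the fit of all 4 tissues and not from that SD, was 2.94 to 3.78. The mean is a 10.3-fold difference if the base is 2. Even so, 129 features, all without a name here, exceeded it, and the largest reached 6.44. PROC, the precursor of the anticoagulant protein C, differed by 2.11, 3.02, 3.04 and 2.63, again with gilt 1 lowest, with a mean of 2.70 ± 0.44 (limma adjusted p = 3.9e-07).

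Of 3 further soluble pattern recognition molecules on the list of liver plasma and host defence proteins, MBL2 and FCN1 were higher in liver. MBL2, a mannose-binding lectin of the complement system, differed by 1.37, 1.78, 1.53 and 2.78, with gilt 4 well above the other 3. Its mean was 1.87 ± 0.63 (limma adjusted p = 2.2e-05), the widest spread over gilts among these proteins. The ficolin FCN1, another activator of the lectin pathway, differed by 1.26, 1.90, 1.58 and 1.76 and averaged 1.63 ± 0.28 (limma adjusted p = 1.5e-05). PGLYRP2, an amidase that cleaves peptidoglycan and is known as a product of liver, did not share this: its gilts stood at 0.14, 0.34, -0.04 and -0.16, on both sides of 0 (limma adjusted p = 0.68). PGLYRP1, another peptidoglycan recognition protein, was not on that list and was named after its values were seen. It lay on the muscle side in all 4 gilts, at -0.65 in gilt 3 and -0.26 to -0.21 in the others. It did not pass, but did in some other fits, among them direct arrays alone and without gilt 4. In all, 5 of 41 listed liver plasma and host defence proteins were measured. Of these 4 were higher in liver, 0 were lower and 1 did not pass (80% passing, against 26.1% of all features). The median was 1.87, where it was 0.02 over all named genes.

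Among the metabolic enzymes of liver, UOX, QDPR, CYP7A1 and GAL3ST2 were higher in liver. UOX, which oxidises uric acid to allantoin in most mammals, differed by 1.96, 2.31, 2.56 and 2.24 (mean 2.27 ± 0.25; limma adjusted p = 1.2e-07). QDPR, which recycles the tetrahydrobiopterin used to hydroxylate phenylalanine, differed by 2.06, 2.56, 2.25 and 2.05 (mean 2.23 ± 0.24; limma adjusted p = 1.4e-06). Both enzymes thus differed by similar amounts in every gilt. CYP7A1, which catalyses the first and rate-limiting step from cholesterol to bile acids, differed by 0.82, 0.88, 1.08 and 0.96 (mean 0.93 ± 0.11; limma adjusted p = 0.0011), while CYP8B1, which sets the balance of bile acids formed later in that pathway, differed by 0.04, 0.24, -0.37 and -0.13 (limma adjusted p = 0.84). The gilts of CYP8B1 thus lay on both sides of 0 and those of CYP7A1 did not. GAL3ST2, a sulfotransferase acting on galactose, was higher in liver by 0.88 ± 0.14 (limma adjusted p = 0.0005).

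Of 31 listed liver enzymes 6 were measured. Of these 4 were higher, 0 lower and 2 did not pass (66.7% passing, against 26.1% of all features), with a median of 0.91. The second of these was VNN1, a pantetheinase, at -0.48 ± 0.11 (limma adjusted p = 0.062). Among all 16 named metabolic enzymes and solute carriers, 6 were higher and 0 lower (37.5% passing, against 26.1% of all features). The 2 outside that list, named after their values were seen, were SULT1E1, the oestrogen sulfotransferase, at 0.40 ± 0.14, and MAOA, which deaminates monoamines, at 0.62 ± 0.11. MAOA passed narrowly (limma adjusted p = 0.0497) and did not pass when any of the 4 gilts was left out, at 0.62, 0.67, 0.58 and 0.63 without gilts 1 to 4.

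Proteins of mitochondria and energy metabolism went in both directions. Of 4 measured of 33 listed, 1 was higher, 2 lower and 1 did not pass (75% passing, against 26.1% of all features). TSPO, which binds cholesterol at the outer membrane of mitochondria, differed by 2.70, 2.81, 1.77 and 2.39 (mean 2.42 ± 0.47; limma adjusted p = 0.0014). Gilt 3 was lowest. ATP5G1, a gene for the c subunit of the mitochondrial ATP synthase, differed by -0.98, -1.45, -1.43 and -1.20 (mean -1.26 ± 0.22; limma adjusted p = 0.0067) and no longer passed without gilt 2, at -1.20. ACADS, which starts the oxidation of short fatty acids, differed by -0.02, 0.01, -0.48 and 0.29, with no common sign (limma adjusted p = 0.84).

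PGK2 had the largest difference towards muscle. It is the form of the glycolytic enzyme phosphoglycerate kinase known from testis, and whether its probe also binds the transcript of the ubiquitous paralog PGK1 was not tested. It differed by -3.05, -2.11, -2.77 and -2.15 (mean -2.52 ± 0.47; limma adjusted p = 9e-06), with liver at -0.50, -0.33, -0.27 and 0.26 and muscle at 2.55, 1.78, 2.50 and 2.41. The tissues did not overlap. A further 97 features were lower than PGK2, and the lowest stood at -4.59.

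Muscle regulatory and contractile genes were few, with 3 measured of 38 listed. Of these 0 were higher, 2 lower and 1 did not pass (66.7% passing, against 26.1% of all features). MYOD1, which commits cells to the myogenic lineage, stood at -0.23, -0.32, -0.23 and -0.26 in liver and at 0.72, 1.01, 0.87 and 0.82 in muscle. It differed by -0.94, -1.33, -1.10 and -1.08 (mean -1.12 ± 0.16; limma adjusted p = 3.2e-07), with no overlap between the tissues. LMCD1, a LIM domain protein that acts with transcription factors in heart and muscle, differed by -0.08, -0.25, -0.25 and -0.48 (mean -0.27 ± 0.17; limma adjusted p = 0.033). It did not pass without gilt 2 (-0.27), gilt 3 (-0.27) or gilt 4 (-0.19).

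MYH7, the myosin heavy chain of slow fibres, differed by 0.32, 0.33, 0.16 and 0.11, on the liver side of 0 in all 4 gilts. Its mean of 0.23 ± 0.11 did not pass (limma adjusted p = 0.12; 95% interval 0.01 to 0.45). It did pass when only the 4 paired differences were fitted. The row before it in the table differed by -1.36, and its part in this value was not tested. NPPA, the atrial natriuretic peptide of heart, named after its values were seen, was higher in liver by 0.32 ± 0.20 (limma adjusted p = 0.0087), and did not pass without gilt 2 (0.31) or gilt 3 (0.24).

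Both measured immediate early factors, of 14 listed, were lower in liver (100% passing, against 26.1% of all features). JUN, a subunit of the AP-1 transcription factor, differed by -2.43, -2.44, -1.87 and -1.56 (mean -2.07 ± 0.44; limma adjusted p = 0.0086). All 4 gilts lay on the muscle side, but JUN no longer passed without gilt 1 (-1.96) or gilt 2 (-1.95). KLF4, a zinc finger transcription factor, differed by -1.62, -1.26, -1.52 and -1.21 (mean -1.40 ± 0.20; limma adjusted p = 6.5e-07). The SE of KLF4 was 0.09 and that of JUN 0.49. The median of these 2 factors was -1.74.

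Other regulators moved less. Named after their values were seen, GATA6, a zinc finger factor of endoderm and heart, was higher in liver by 0.29 ± 0.04 (limma adjusted p = 0.0054), and ESR2, the oestrogen receptor beta, by 0.30 ± 0.06 (limma adjusted p = 0.00079). Although small, both differences exceeded 0.2 in every gilt, from 0.23 to 0.31 for GATA6 and from 0.21 to 0.36 for ESR2. CDKN2B, an inhibitor of cyclin-dependent kinases, was lower in liver at -0.28 ± 0.15 (limma adjusted p = 0.021), and did not pass without gilt 2 (-0.25) or gilt 4 (-0.22).

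Of 24 membrane, matrix and secretory pathway genes, 4 were higher, 4 lower and 16 did not pass (33.3% passing, against 26.1% of all features). FOLR1, the folate receptor alpha, differed by 1.79, 2.41, 1.81 and 1.30 (mean 1.83 ± 0.45; limma adjusted p = 7.8e-05). It was the only named gene with a dye effect past the threshold, at 0.32 per array (limma adjusted p = 0.041), where 0.786% of all features passed. That dye effect no longer passed when any 1 gilt was left out, at 0.28 to 0.36 (limma adjusted p = 0.070 to 0.21). Every tissue met both dyes in a loop, so a dye effect equal on all arrays cancels from the solved difference. It does not cancel from the direct array alone or from the 3 other arrays alone. LAMP1, a membrane glycoprotein of lysosomes, differed by 0.87, 1.33, 0.84 and 0.59 (mean 0.91 ± 0.31; limma adjusted p = 0.0044). CAV1, the scaffold of caveolae, abundant in endothelium and fat cells, differed by -0.83, -0.74, -0.61 and -0.91 (mean -0.77 ± 0.13; limma adjusted p = 0.0058). ITM2A, a type II membrane protein, stood at -0.51 ± 0.18 (limma adjusted p = 0.042), did not pass without gilt 1 (-0.53), 2 (-0.55) or 3 (-0.42), and came after a row that differed by -1.16.

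Of 6 measured vascular, stromal and smooth muscle genes of 23 listed, 0 were higher, 2 lower and 4 did not pass (33.3% passing, against 26.1% of all features). Beside CAV1, the second was the oxytocin receptor OXTR, known for its part in uterine contraction, at -0.37 ± 0.13 (limma adjusted p = 0.0059), which did not pass without gilt 3 (-0.31). S100A11, a calcium-binding protein of many cell types, differed by 0.73, 0.01, 0.24 and -0.17 (limma adjusted p = 0.76). Its 95% interval of -0.59 to 1.00 was wide enough to hold a difference of 0.5 in either direction.

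Leukocyte genes mostly did not pass. Of 14 measured of 50 listed, 3 were higher in liver, 0 lower and 11 did not pass (21.4%, against 26.1% of all features), with a median of 0.14. IL1A, a cytokine released by injured cells and macrophages, was the most even of the larger solved differences, at 0.85, 1.01, 1.06 and 0.93 (mean 0.96 ± 0.09; limma adjusted p = 6.6e-06). The arrays behind it were less even: in gilt 3 it differed by 0.31 through uterine endothelium and 1.82 through brain stem. PSME1, a subunit of the proteasome activator that interferon gamma induces, differed by 0.90, 0.87, 0.97 and 0.66 (mean 0.85 ± 0.14; limma adjusted p = 0.0068), and did not pass without gilt 3, at 0.81. PDCD1LG2, a ligand of the immune checkpoint receptor PD-1, differed by 0.25, 0.24, 0.26 and 0.28 (limma adjusted p = 0.023), and did not pass without gilt 2 (0.26), 3 (0.25) or 4 (0.25).

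Further genes of the list had all 4 gilts above 0 without the mean passing. TYROBP, the adaptor DAP12 of myeloid and natural killer cells, differed by 0.71, 0.58, 0.70 and 0.78 (mean 0.69; limma adjusted p = 0.060), and the immunoproteasome subunit PSMB8 by 0.42, 0.20, 0.75 and 0.30 (limma adjusted p = 0.10). Without gilt 4 both passed, at 0.66 for TYROBP and 0.45 for PSMB8. CD4, the coreceptor of helper T cells, differed by 0.04, 0.12, 0.04 and 0.14 (limma adjusted p = 0.50). Over all 32 named leukocyte, cytokine and antigen processing genes, 5 were higher, 2 lower and 25 did not pass (21.9% passing, against 26.1% of all features).

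Among 6 antimicrobial peptide genes 1 was higher and 1 lower (33.3% passing, against 26.1% of all features). PR39, a porcine cathelicidin stored in neutrophils, was lower in liver at -0.83, -0.58, -0.69 and -0.47 (mean -0.64 ± 0.15; limma adjusted p = 1.8e-05). NPG4, the gene of the cathelicidin protegrin 4, named after its values were seen, was higher by 0.17 ± 0.05 (limma adjusted p = 0.044) and passed in 0 of the 4 fits that left out a gilt, in which it ranged from 0.15 to 0.19. The cathelicidin genes are close relatives, and whether their probes tell them apart was not tested.

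Of 30 hormone and neuropeptide genes and their receptors, 4 were higher, 5 lower and 21 did not pass (30.0% passing, against 26.1% of all features). HRH4, the histamine receptor of eosinophils and mast cells, had the largest difference, at 0.66, 1.50, 1.06 and 1.78 (mean 1.25 ± 0.49; limma adjusted p = 0.0050), and did not pass without gilt 2, at 1.17. UTS2, the vasoactive peptide urotensin 2, was higher by 0.68 ± 0.22 (limma adjusted p = 0.012), and did not pass without gilt 2 (0.66) or gilt 3 (0.65). MC1R, the melanocortin receptor of pigment cells, stood at -0.54, -0.80, -0.83 and -0.95 (mean -0.78 ± 0.17; limma adjusted p = 0.0051). ADCYAP1, the gene of the neuropeptide PACAP, varied the most relative to its mean among the genes in the plot of gilts, at -0.74, -1.19, -0.14 and -0.70 (mean -0.69 ± 0.43; limma adjusted p = 0.0040). INHA, the inhibin alpha subunit, named after its values were seen, had the largest difference that did not pass, at -0.76 (limma adjusted p = 0.056). Without gilt 1 it passed, at -0.95.

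Neuronal and glial genes of the list gave 1 higher, 3 lower and 3 not passing among 7 measured of 26 (57.1% passing, against 26.1% of all features). Beside ADCYAP1, the lower ones were SCAMP1, a secretory carrier membrane protein, at -0.61 ± 0.19 (limma adjusted p = 0.00088), and CACNB4, an auxiliary subunit of voltage-gated calcium channels, at -0.59 ± 0.19 (limma adjusted p = 0.0012). GAD1, which makes the transmitter GABA, was higher by 0.16 ± 0.03 (limma adjusted p = 0.039), and passed in 0 of 4 fits without a gilt, at 0.15 to 0.17. Its relative GAD2 differed by -0.04 (limma adjusted p = 0.84), and the glycine receptor subunit GLRB by 0.02 (limma adjusted p = 0.92). GLRB came after a row that differed by 1.54.

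Of 29 genes best known from tissues not sampled, such as testis, mammary gland, skin and eye, 1 was higher, 5 lower and 23 did not pass (20.7%, against 26.1% of all features). Beside PGK2, the lower ones were CSN1S1, the milk protein alpha-s1 casein, at -0.58 ± 0.15 (limma adjusted p = 0.0085), the tissue kallikrein KLK1 at -0.47 ± 0.12 (limma adjusted p = 0.0079), the sperm protamine PRM2 at -0.45 ± 0.15 (limma adjusted p = 0.0063), and SMCP, a protein of the sperm mitochondrial capsule, at -0.19 ± 0.10 (limma adjusted p = 0.032). CSN1S1 did not pass without gilt 2 (-0.54), nor KLK1 without gilt 3 (-0.43), nor SMCP in any fit that left out a gilt (-0.23 to -0.15). OCA2, a melanosomal transporter, was higher by 0.47 ± 0.09 (limma adjusted p = 0.00037). SMCP and OCA2 were named after their values were seen.

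SRY, the sex-determining gene of the Y chromosome, which gilts lack, was also on the array. It differed by -0.04 ± 0.08 (limma adjusted p = 0.65; 95% interval -0.17 to 0.08). The last 6 rows of each run of 432 rows, unnamed rows chosen after the data were seen, varied little. They gave liver minus muscle values between -0.14 and 0.06 over 288 rows, and 0 of them passed. Because of that choice the count is not a test, and their range is not a threshold for a gene. Several genes that passed, such as GAD1 and NPG4, lay close to that range.

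**Figure D2:**
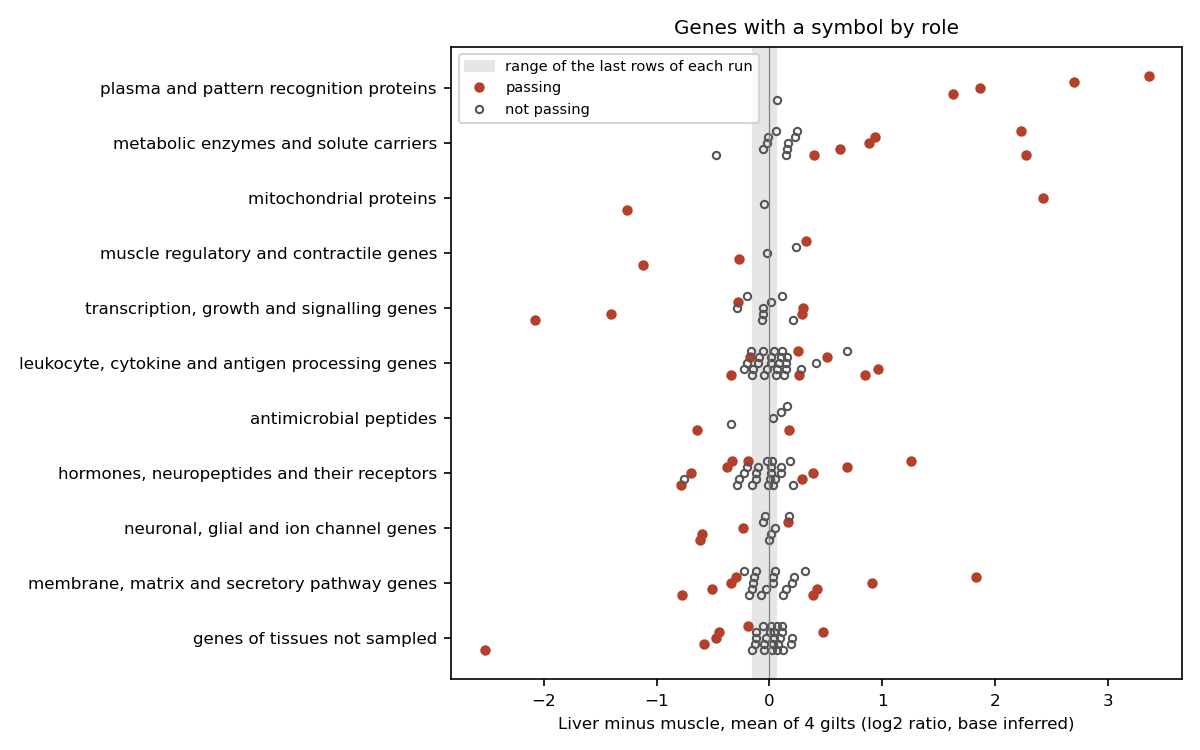
Liver minus muscle for the named genes by role, on the inferred log2 scale, as the mean of 4 gilts. Filled points passed the limma test and open points did not. The grey band is the range of the last rows of each run, -0.14 to 0.06, which were chosen after the data were seen. Plasma and pattern recognition proteins lie to the right, with 4 of 5 passing, and 23 of 29 genes of tissues not sampled are open. Of all features 26.1% passed. The 2 genes in no role are not drawn.

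Liver and muscle were each set against the mean of uterine endothelium and brain stem. These comparisons share samples with the liver minus muscle difference and with each other, so their values are given side by side. Liver differed from the other tissues at 26.7% of all features (15.1% higher, 11.6% lower) and muscle at 30.0% (16.6% higher, 13.4% lower). Of the 56 genes, 30 (53.6%) differed for liver and 25 (44.6%) for muscle. Of the 30 genes higher in liver than in muscle, 20 passed for liver alone, 1 for muscle alone, 4 for both and 5 for neither. Passing for liver alone did not make liver the highest tissue: of those 20 genes, PSME1 stood at 0.50 in liver against 1.16 in uterine endothelium, LAMP1 at 0.52 against 0.59, and ESR2 at 0.17 against 0.22 in brain stem. Of the 26 lower ones, 5 passed for liver alone, 19 for muscle alone, 1 for both and 1 for neither. Whether the difference between the directions exceeds what these shared samples give was not tested.

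CRP was the clearest case on the liver side, at 3.27 in liver and -0.09 in muscle against the mean of the other tissues. PROC stood at 2.79 in liver and 0.09 in muscle, UOX at 2.22 in liver and -0.04 in muscle, and FCN1 at 1.69 in liver and 0.06 in muscle. In these 4 genes muscle lay within 0.1 of the mean of the other tissues. QDPR differed for both, at 1.64 in liver (limma adjusted p = 4.8e-06) and -0.59 in muscle (limma adjusted p = 0.0084). IL1A also did, with both tissues above the mean of the others, at 1.26 in liver and 0.30 in muscle. Against the mean of 4 tissues, IL1A in muscle stood at -0.09, below uterine endothelium at 0.05 and above brain stem at -0.82. TSPO and FOLR1 had high values in uterine endothelium too, at 0.64 and 1.05 against the mean of 4 tissues. In liver these genes stood at 1.43 for TSPO and 1.15 for FOLR1.

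On the muscle side, MYOD1 stood at 0.04 in liver and 1.15 in muscle against the other tissues, and KLF4 at -0.09 in liver and 1.31 in muscle. PR39 stood at 0.10 in liver and 0.75 in muscle. PGK2 was higher than the other tissues in both, at 0.84 in liver (limma adjusted p = 0.0097) and 3.36 in muscle (limma adjusted p = 7.2e-07). CAV1 and ATP5G1 passed for liver alone. CAV1 stood at -0.79 in liver and -0.02 in muscle, and ATP5G1 at -1.11 in liver and 0.16 in muscle. Their other tissues were unlike each other: CAV1 was at 1.09 in uterine endothelium and -0.68 in brain stem, and ATP5G1 at -0.68 in uterine endothelium and 1.15 in brain stem. JUN lay on both sides, at -1.06 in liver and 1.01 in muscle, and passed for neither tissue.

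**Figure D3:**
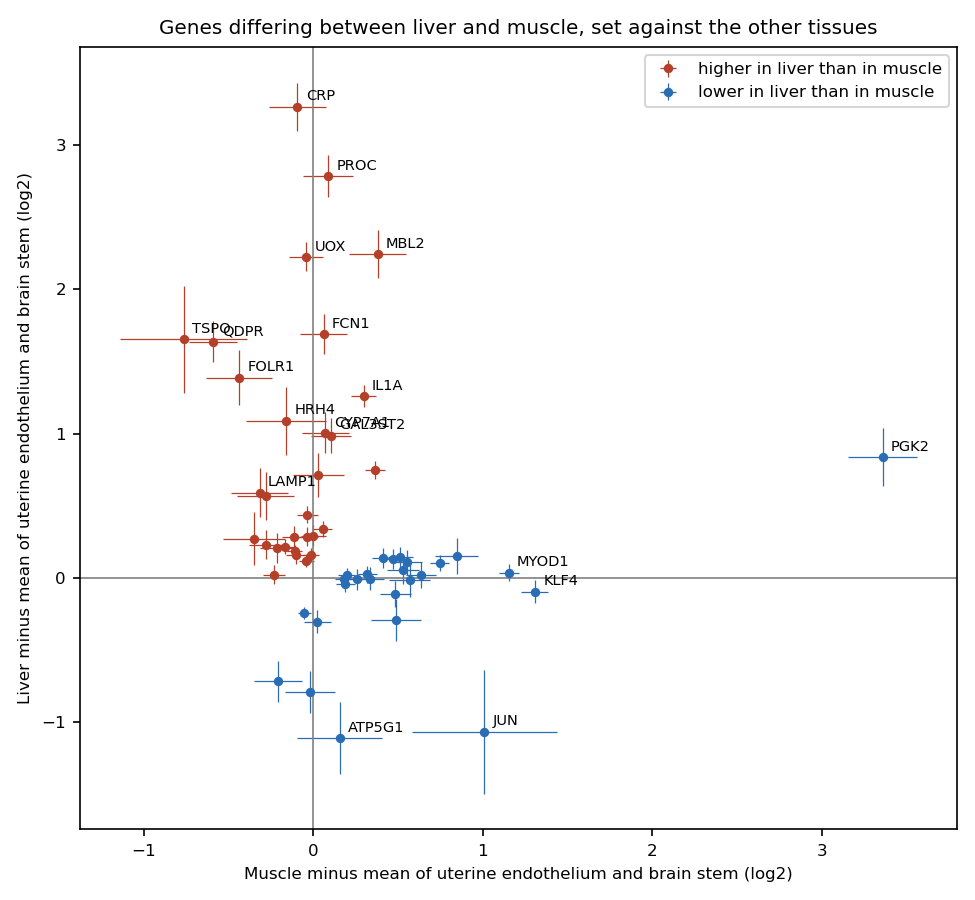
The 56 genes that differed between liver and muscle, each placed by liver (y axis) and muscle (x axis) minus the mean of uterine endothelium and brain stem, on the inferred log2 scale. Bars are SE, red points were higher in liver than in muscle and blue points lower. CRP lies high on the y axis at 3.27, PGK2 far along the x axis at 3.36, and JUN low and to the right.

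The same difference was measured along separate paths. In gilts 1, 2 and 4 the direct array gave liver minus muscle once, and the other 3 arrays of the loop gave it again by way of brain stem and uterine endothelium. The solved value weighs the direct array 3 times as much as the indirect path. Across all features of a gilt, which are not independent replicates, direct and indirect values correlated with r = 0.734 in gilt 1, 0.649 in gilt 2 and 0.712 in gilt 4, and over the named genes with 0.717, 0.749 and 0.770. The median absolute gap between the paths was 0.27, 0.35 and 0.28 for the named genes. In gilt 3 the paths through uterine endothelium and through brain stem correlated with r = 0.742. The 3 direct arrays correlated with each other at 0.831 to 0.947, and the solved differences of the 4 gilts at 0.883 to 0.925.

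The difference between direct and indirect path passed the test at 0 of 20733 features (0%; limma adjusted p = 0.998 for each named gene). At an unadjusted p under 0.05 it did so at 684 features (3.3%), 8 of them named genes. With 3 gilts this does not show that the paths were equal. The gap between the paths is, up to its sign, the sum of the ratios around the loop. The dye effect was taken from the same sums, so the tests are not separate checks. On the direct array of gilt 1, liver carried the other dye than on the remaining direct arrays. A dye effect with 1 sign therefore enters the gaps with opposite signs, partly cancels and widens their spread. The test of the gap can hardly detect such an effect. Of all features, 27.8% had 1 sign on all 3 direct arrays and all 3 indirect paths. Among the features that passed for liver minus muscle 73.0% did so, and among the 56 genes 36 (64.3%) did so. NPG4 was the only one of the 56 whose direct and indirect means differed in sign.

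CRP differed by 2.44, 3.79 and 3.71 on the direct arrays and by 2.97, 3.69 and 3.95 along the indirect paths of gilts 1, 2 and 4, and by 3.64 and 3.02 in gilt 3 through uterine endothelium and brain stem. All 8 values were above 2. MYOD1 differed by -0.87, -1.40 and -1.03 directly and by -1.18, -1.14 and -1.23 indirectly, and KLF4 by -1.63, -1.30 and -1.13 directly and by -1.59, -1.11 and -1.43 indirectly. GATA6, though small, differed by 0.29, 0.25 and 0.30 directly and by 0.38, 0.18 and 0.29 indirectly. In each of these 4 genes all values of both paths had 1 sign. The widest gap of CRP was in gilt 1, where the direct value was the lower.

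In other genes the paths parted further. TSPO differed by 2.76, 2.95 and 3.08 directly and by 2.55, 2.40 and 0.31 indirectly, so that gilt 4 was low on the indirect path alone. Its gap of 1.18 ± 1.39 (SD, n = 3) was the largest among the named genes. For FOLR1, ATP5G1 and S100A11 the paths parted in all 3 gilts, and the sign of the gap in gilt 1 was opposite to that in gilts 2 and 4. FOLR1 differed by 1.48, 2.63 and 1.75 directly and by 2.71, 1.74 and -0.04 indirectly. ATP5G1 differed by -1.48, -1.09 and -0.90 directly and by 0.51, -2.51 and -2.09 indirectly, with gilt 1 reversed on the indirect path. S100A11 was near 0.23 on all direct arrays, at 0.24, 0.24 and 0.22, while its indirect paths gave 2.18, -0.68 and -1.32. Liver carried the other dye on the direct array of gilt 1 than on those of gilts 2 and 4. The gap takes its sign from that dye. A sum of ratios with 1 sign in these loops therefore gives opposite gaps in gilt 1 and in gilts 2 and 4. The dye effect of S100A11 was 0.30 per array (limma adjusted p = 0.083).

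CD46, VNN1 and XCR1 had a gap of the same sign in all 3 gilts. CD46, a membrane protein that shields cells from complement, differed by 0.22, 0.02 and 0.19 directly and by -0.87, -0.71 and -0.86 indirectly. The mean gap was 0.96 ± 0.20 (SD, n = 3; limma adjusted p = 0.998). The path of gilt 3 through uterine endothelium gave -0.10, and that through brain stem gave -1.13. VNN1 differed by -0.21, -0.35 and -0.13 directly and by -0.81, -1.34 and -1.78 indirectly, a gap of 1.08 ± 0.53. Both genes passed with the indirect paths alone and neither passed with all arrays or with direct arrays alone. MC1R, at -0.16, -0.83 and -0.70 directly and -1.71, -0.73 and -1.67 indirectly, had a mean gap of 0.81 ± 0.83, with gilt 2 of the other sign. XCR1, a chemokine receptor of dendritic cells, had a gap of 0.76 ± 0.64. These genes were picked for their gaps, which are therefore descriptions.

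**Figure D4:**
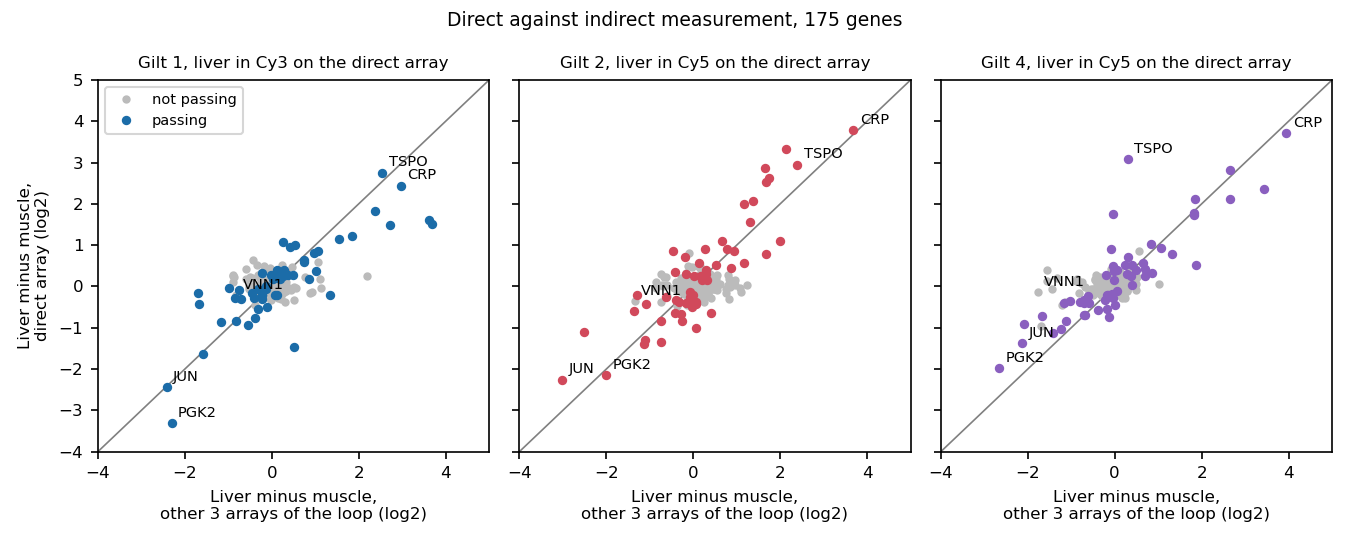
Direct array (y axis) against the other 3 arrays of the loop (x axis) for liver minus muscle of the 175 named genes in gilts 1, 2 and 4, on the inferred log2 scale. Coloured points passed the liver minus muscle test, grey points did not, and the line marks equality. CRP and PGK2 lie near the line in all 3 gilts, and TSPO in gilt 4 lies well above it, at 3.08 directly and 0.31 indirectly.

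With direct arrays alone 44 of the 56 genes passed, and with indirect paths alone 19 did. Over all features 5237 passed with direct arrays alone and 2141 with indirect paths alone, against 5408 with all arrays. The direct fit held 3 gilts. The indirect fit held 4, because gilt 3 entered it as the mean of its paths through uterine endothelium and brain stem. In gilts 1, 2 and 4 the indirect path runs over 3 arrays, and the part of this in the lower counts was not tested. A total of 28 genes passed without each gilt in turn and 28 lost their call without at least 1. Features passing also fell when a gilt was left out, from 5408 to between 3683 and 4398. The share of all features that kept their call in every such fit was not counted. Of the 28 that kept it, 15 also passed with each path alone, and the share of all features that did both was not counted either. The 15 were CRP, PROC, TSPO, UOX, QDPR, MBL2, FCN1, IL1A, CYP7A1, GAL3ST2 and OCA2, higher in liver, and PGK2, KLF4, MYOD1 and PR39, lower in liver. Passing with each path did not make the paths alike. OCA2 differed by 0.38, 0.44 and 0.25 directly and by 1.03, 0.86 and 0.69 indirectly in gilts 1, 2 and 4. In gilt 3 it stood at -0.003 through uterine endothelium and 0.91 through brain stem.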

How the data were processed

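The deposited table held 1 value per row and array for 16 arrays, read as a log2 ratio of Cy5 over Cy3, with base and sign inferred from the values. With medians near 0, the authors' deposited arrays appeared centred. Tissue, dye and gilt of each array came from the labels. The scanner, background correction, normalization and filters were not given in the sources used here. Control probes were not separated from the rest. All 178 named rows were matched by gene identifier to a RefSeq gene table.

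Least squares turned the 4 ratios of a loop into values for its 4 tissues. Every feature was fitted in R 4.3.3 by limma 3.58.1. Gilt was a fixed block, leaving 9 residual degrees of freedom, and tests were moderated, two-sided, and adjusted by Benjamini-Hochberg over all 20733 features at a threshold of 0.05. The pairing comes from the labels, which tie a loop's arrays to 1 animal. The correlation of array residuals within a gilt was -0.13. The dye effect was the mean residual of the loops, and direct minus indirect was fitted over 3 gilts. Both come from the sum of the ratios around a loop. The fit was tested on simulated data.

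Genes were named if they passed, kept 1 sign over the gilts and were among the 15 most different in either direction, if they were on one of 8 lists, or if they had one of the 5 largest gaps between paths; others are said to have been named after their values were seen. Members, lists and roles were chosen with earlier results of these data known. Positions are left out because no genome was used.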

Additional observations from a re-analysis of the deposited data

Results flagged for a closer look

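Of 89 named genes whose 4 gilts were examined for a value far from the others by Dixon's criterion at the 95% level, 3 had one, where chance gives about 1 in 20. None of these 3 genes passed the liver minus muscle test. For TLR10, a Toll-like receptor of B cells, gilt 3 was low at 0.053 and the other gilts gave 0.34 to 0.38. For IFNA1, an alpha interferon, gilt 2 was high at 0.29 and the other gilts gave 0.08 to 0.10. For PGLYRP1, a peptidoglycan recognition protein of neutrophil granules, gilt 3 was low at -0.65 and the other gilts gave -0.26 to -0.21.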

How the results depend on the processing

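Leaving out each gilt gave 3683 to 4398 features passing for liver minus muscle, against 5408 with all. Of these 1951 to 2353 were higher and 1682 (without gilt 3) to 2056 lower in liver, 733 to 814 were higher and 522 to 604 lower by at least 1, and 20 to 26 named genes were higher and 14 (without gilt 2 or 3) to 23 lower. Passing features numbered 3479 (without gilt 3) to 4718 for liver and 4079 (without gilt 3) to 4967 for muscle against the other tissues. Those with a dye effect numbered 0 without gilt 2 or 3, 6 without gilt 4 and 131 without gilt 1, against 163.

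Indirect paths alone gave 2141 features, 1058 higher and 1083 lower, and 12 named genes higher and 9 lower. As alternatives to the replicate block by gilt, a fit of the 16 array ratios with no replicate block gave 68 named genes, 55 of them among the 56, a random block gave 66 (55 shared), and the 4 paired differences alone gave 76 (55 shared). Each of these fits thus kept all but 1 of the 56 calls. Every array ratio compares tissues of the same gilt, so none of these fits removes the pairing, and its effect was not tested. Scaled arrays gave 78 named genes, all 56 among them. Centring on the last rows of each run, chosen after the data were seen, shifted the median of all features to 0.03, gave 59 named genes and lost IFNB1, ITM2A, LMCD1 and SMCP. With the sign turned, 26 named genes were higher and 30 lower. Single values then are the exact negatives and are not repeated.

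Values changed sign as follows, all but NPG4 in genes that did not pass. With direct arrays alone ACADS stood at 0.28, CD46 at 0.14, CYP8B1 at 0.099, IL17A at 0.046, LTA at 0.035, GAD2 at 0.015, FGF9 at 0.013 and XCR1 at 0.0086. With indirect paths alone SRY stood at 0.11, IL12RB2 at 0.10, BMP15 at 0.086, ITGA2B at 0.049, NPG4 at -0.015, GNAS at -0.058 and GLRB at -0.071. Both array ratio fits gave ACADS 0.023 and FGF9 0.020. MYOCD stood at 0.018 with run end centring. Over the fits without a gilt, MYOCD ranged from -0.065 to 0.010, CXCR6 from -0.029 to 0.039, PGLYRP2 from -0.021 to 0.15, GLRB from -0.011 to 0.056, ACADS from -0.16 to 0.094 and CYP8B1 from -0.15 to 0.053. The cause was not tested in any of these. Without intensities, signal over background is unknown.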
